A study of Mus musculus with 12 samples.

Results

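Extracellular ATP and NAD are released by stressed or activated cells, and the 8 genes described here encode the proteins with which T cells sense these nucleotides, convert them and respond to the product, adenosine. They are Entpd1, Nt5e, Ada, Dpp4, Adora2a, P2rx7, P2rx4 and Art2b. CD39, the product of Entpd1, cleaves ATP and ADP to AMP, and CD73, the product of Nt5e, cleaves AMP to adenosine. Adenosine acts on the A2a receptor, which couples to cAMP, and the pair of CD39 and CD73 is one of the known means by which regulatory T cells (Treg) restrain other T cells. The genes were taken by name from the tables of 12 RNA libraries, as 8 of the 41457 genes listed there, and all 8 had enough reads to be tested in each of 5 comparisons.

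The libraries were made from splenic RFP+CD4+ T cells, sorted as Foxp3+ Treg and kept overnight in 5 U/mL recombinant human IL-2. Unstimulated cells received IL-2 alone, and stimulated cells were given antibodies to CD3 (1 μg/mL) and to CD28 (2 μg/mL) in addition. CD18Foxp3 Treg came from CD18 fl/fl mice that carry Foxp3Cre, a Cre recombinase driven from the Foxp3 locus (Foxp3tm1[cre]/Saka), and a red fluorescent reporter of Cre activity at the ROSA26 locus. CD18wt Treg came from CD18wt/wt Foxp3Cre littermates, so the controls carry the Cre as well and differ in the floxed CD18 alleles. The ages and sexes of these mice are not given in the sources used here. Each of the 4 groups (CD18wt or CD18Foxp3, unstimulated or stimulated) held 3 libraries labelled as biological replicates, with 10665174 to 19005482 exon reads per library, and p-values measure the spread between these 3.

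Levels are given as TPM, that is, exon reads per length of exon, scaled to the same total in every library. Itgb2, which encodes CD18, was at 387 to 465 TPM in unstimulated and 329 to 331 TPM in stimulated CD18wt libraries, against 229 to 257 and 131 to 202 TPM in CD18Foxp3 libraries. Its log2 fold change between the genotypes was -0.85 without (SE 0.09, edgeR adjusted p = 0.0041) and -0.94 with stimulation (SE 0.17, edgeR adjusted p = 0.216). The floxed part is a single exon, so reads from the rest of the gene check the deletion only in part. The 7 Treg markers, Foxp3 among them, had reads in every library, and the summed level of the 7 was 1620 to 2110 TPM in unstimulated CD18wt Treg and 1880 to 1930 TPM in unstimulated CD18Foxp3 Treg. With stimulation it was 2960 to 3790 TPM in CD18wt and 3880 to 4460 TPM in CD18Foxp3 Treg. There the genotypes did not overlap, and 5.02% of single genes tested also had every CD18Foxp3 library above. The sum hides opposite moves on stimulation. Il2ra went from 153 to 980 TPM in CD18wt and from 122 to 1372 TPM in CD18Foxp3 Treg. Cd4 went from 614 to 366 TPM and from 592.5 to 321 TPM, and Cd3e was lower as well. All others of the 7 were higher in TPM after stimulation.

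Without stimulation, the members spanned a wide range of levels. Art2b was the most abundant of them in CD18wt Treg with 169 ± 30.2 TPM (SD, n = 3), a level above that of 94.5% of 12636 genes, and P2rx4 was the least abundant with 6.70 ± 0.196 TPM (SD, n = 3), above 36.1% of these genes. Between them lay Nt5e, P2rx7, Adora2a, Dpp4, Entpd1 and Ada, in this order, and in CD18wt Treg only the neighbours Ada and P2rx4 overlapped in their libraries. In unstimulated CD18Foxp3 Treg, P2rx7, Nt5e and Adora2a followed Art2b at mean levels of 80.8, 76.6 and 75.9 TPM, and their libraries overlapped. After stimulation the order differed: Nt5e and Adora2a led in both genotypes, and Art2b stood second to last, with a mean of 15.2 TPM in CD18wt and 14.2 TPM in CD18Foxp3 Treg. Ada, Dpp4, Entpd1, P2rx7 and Art2b lay between 14.2 and 26.5 TPM after stimulation, where neighbours in the order overlapped in both genotypes. The plot of levels by library shows these patterns for each gene.

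**Figure D1:**
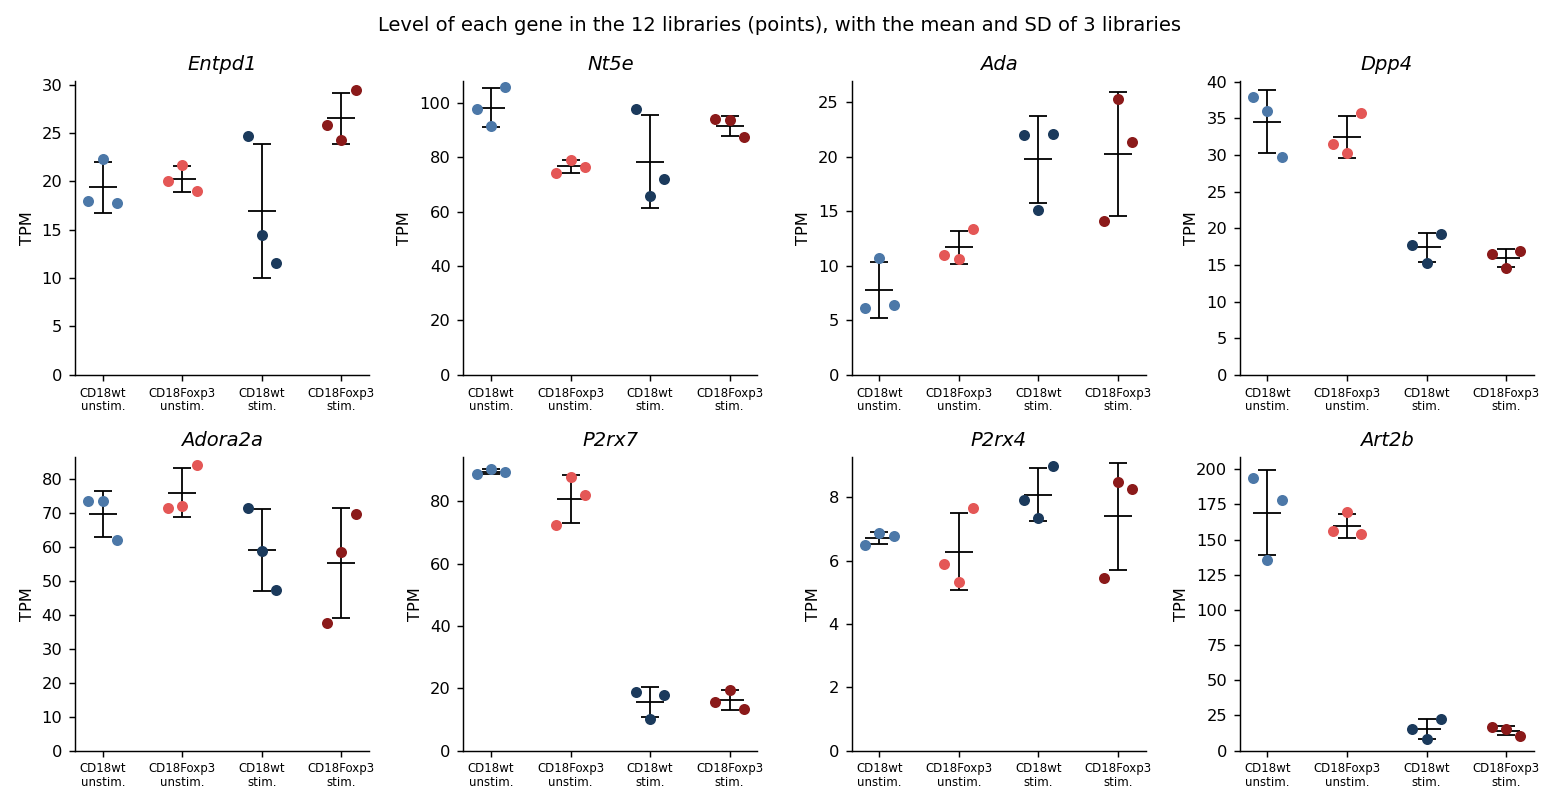
Level of each of the 8 genes in TPM (vertical axes, each from 0) in the 3 libraries of each group (points), with the mean and SD as bars. P2rx7, Art2b and Dpp4 were lower in all 6 stimulated libraries than in all 6 unstimulated ones, while the genotypes overlapped for most genes.

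To ask what stimulation through the T cell receptor and CD28 did to these transcripts, stimulated and unstimulated Treg of each genotype were compared in TMM-normalized counts with the quasi-likelihood test of edgeR. A gene was called, and is said to have risen or fallen, where its fold change was at least 1.5 and its adjusted p at most 0.01. In CD18wt Treg 5 of the 8 genes fell, namely Art2b, P2rx7, Dpp4, Nt5e and Adora2a, where 14.9% of the 11930 genes tested fell. In CD18Foxp3 Treg 4 of them fell, namely Art2b, P2rx7, Dpp4 and Adora2a, where 17.6% of 12019 genes fell. None of the 8 rose, against 18.7% and 20.9% of all genes. At an unadjusted p under 0.05 in edgeR there were 7 of the 8 in CD18wt Treg, where 55.2% of all genes reached it, and 4 in CD18Foxp3 Treg, where 61.4% did. Below, SE denotes the error of the fitted log2 fold change, and adjusted p-values of edgeR are Benjamini-Hochberg values over all genes tested. The median log2 fold change of the members was -0.69 in CD18wt and -0.48 in CD18Foxp3 Treg, beside 0.02 and 0.01 over all genes tested. In a sorted population measured in bulk, fewer cells that carry a transcript and less of it per cell cannot be told apart.

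The size of a fall depends on the scale. On the log2(TPM + 1) scale the median of all genes tested moved by 0.36 in CD18wt and 0.31 in CD18Foxp3 Treg. On that scale limma called 3510 genes higher and 831 lower in CD18wt Treg, where edgeR called 2234 and 1779, and in CD18Foxp3 Treg 3777 and 1201 in place of 2516 and 2120. Fold changes below are those of the TMM-normalized counts unless TPM is named, and are thus relative to a median near 0. Art2b, P2rx7 and Dpp4 were called lower on both scales in both genotypes.

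**Figure D2:**
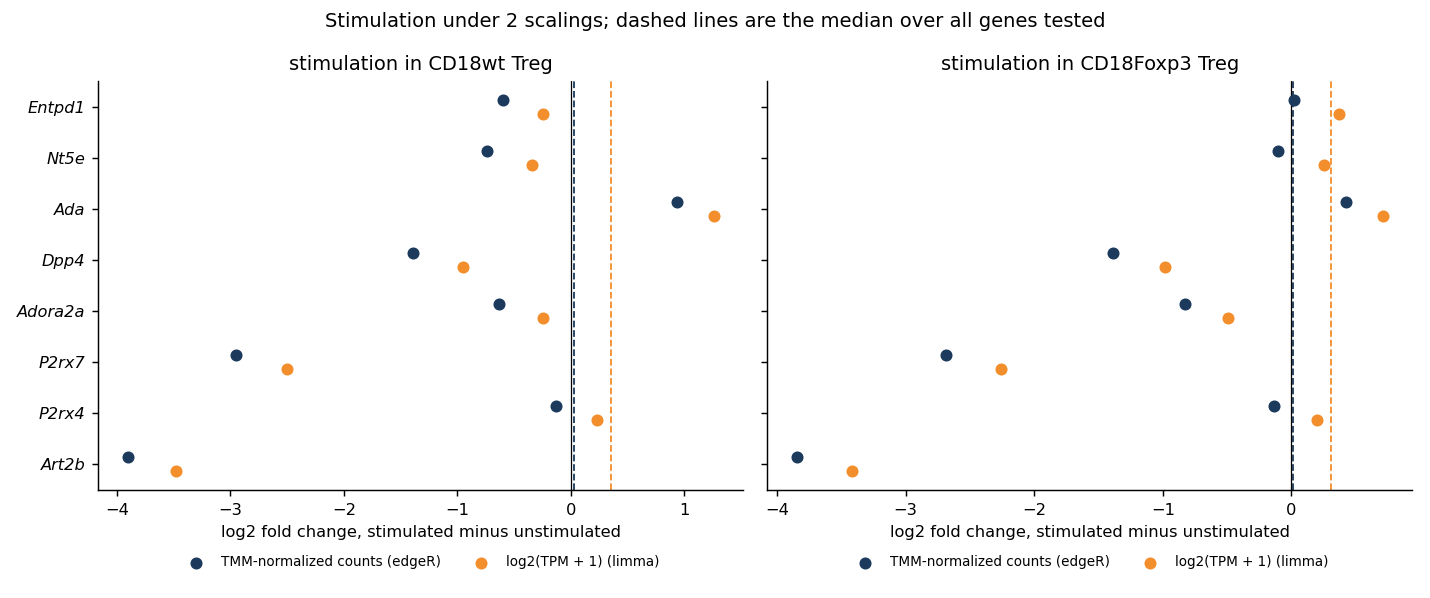
Log2 fold change on stimulation of each gene (horizontal axes, stimulated minus unstimulated) in TMM-normalized counts (dark points) and on the log2(TPM + 1) scale (orange points), with dashed lines at the median over all genes tested. Every gene lies further to the right on the TPM scale, as the median does, and P2rx4 in both genotypes and Nt5e in CD18Foxp3 Treg change sign.

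Among the genes that make adenosine, Entpd1 (ENSMUSG00000048120, chromosome 19 of GRCm38, 40612366 to 40741602) was at 18, 22.3 and 17.7 TPM in unstimulated CD18wt Treg and at 20.02, 21.7 and 19.0 TPM in unstimulated CD18Foxp3 Treg. After stimulation it was at 24.7, 14.5 and 11.5 TPM in CD18wt and at 25.8, 24.3 and 29.4 TPM in CD18Foxp3 Treg. The stimulated CD18wt libraries thus spread on both sides of the unstimulated ones. The 3 stimulated CD18Foxp3 libraries lay above theirs in TPM, as did those of 47.9% of all genes tested in that genotype. The log2 fold change on stimulation was -0.60 in CD18wt Treg (SE 0.24, edgeR adjusted p = 0.057) and 0.02 in CD18Foxp3 Treg (SE 0.13, edgeR adjusted p = 0.892). The first of these values rested on single libraries. It was -0.94 and past the threshold without replicate 1 of stimulated CD18wt Treg (edgeR adjusted p = 0.0035), and -0.38 without replicate 3 of that group (edgeR adjusted p = 0.133).

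Nt5e (ENSMUSG00000032420, chromosome 9, 88327197 to 88372092) was at a higher level per length than Entpd1 in every library. Unstimulated CD18wt libraries held 97.5, 91.4 and 106 TPM and unstimulated CD18Foxp3 libraries 74.1, 79.0 and 76.5 TPM. In stimulated CD18wt Treg it was at 97.7, 65.5 and 71.9 TPM, and in stimulated CD18Foxp3 Treg at 93.8, 93.5 and 87.2 TPM. Of the stimulated CD18wt libraries, 2 lay under all unstimulated ones of that genotype and replicate 1 lay within their range. Nt5e fell in CD18wt Treg by 0.74 on the log2 scale (SE 0.16, edgeR adjusted p = 0.0017), and was at -0.11 in CD18Foxp3 Treg (SE 0.10, edgeR adjusted p = 0.387). On the log2(TPM + 1) scale the value was -0.34 in CD18wt Treg (adjusted p = 0.0912, limma), which is not past the threshold, and 0.25 in CD18Foxp3 Treg (adjusted p = 0.0357, limma).

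Adenosine is removed by adenosine deaminase, which turns it into inosine and is encoded by Ada (ENSMUSG00000017697, chromosome 2, 163726584 to 163750239). It was at 6.14, 10.8 and 6.40 TPM in unstimulated CD18wt and at 10.99, 10.7 and 13.4 TPM in unstimulated CD18Foxp3 Treg. Stimulated libraries were higher, with 22.0, 15.1 and 22.1 TPM in CD18wt and 14.1, 25.2 and 21.4 TPM in CD18Foxp3 Treg, and in both genotypes they lay above the unstimulated ones, as did 47.8% (CD18wt) and 47.9% (CD18Foxp3) of all genes tested. The log2 fold change on stimulation was 0.93 in CD18wt Treg (SE 0.28, edgeR adjusted p = 0.013) and 0.42 in CD18Foxp3 Treg (SE 0.22, edgeR adjusted p = 0.137), so that neither passed the threshold. In CD18wt Treg it did pass with DESeq2 (0.91, DESeq2 adjusted p = 0.0082), on the log2(TPM + 1) scale (1.26, adjusted p = 0.0026, limma) and without replicate 2 of the unstimulated libraries (1.22, edgeR adjusted p = 0.0071). Ada rested on 52 to 281 exon reads per library.

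Dpp4 (ENSMUSG00000035000, chromosome 2, 62330073 to 62412231) encodes CD26, a surface peptidase that in humans also anchors adenosine deaminase to the T cell. Its level was 38.0, 36 and 29.7 TPM in unstimulated CD18wt and 31.4, 30.3 and 35.7 TPM in unstimulated CD18Foxp3 Treg. It was 17.7, 15.3 and 19.2 TPM in stimulated CD18wt and 16.4, 14.6 and 16.9 TPM in stimulated CD18Foxp3 Treg, with no overlap between the cultures. Of all genes tested, 14.2% in CD18wt and 19.2% in CD18Foxp3 Treg had all stimulated libraries under the unstimulated ones. Dpp4 fell by 1.39 on the log2 scale in both genotypes, with SE 0.13 and edgeR adjusted p = 2.8e-06 in CD18wt and SE 0.12 and edgeR adjusted p = 1.8e-05 in CD18Foxp3 Treg. An antisense gene, Gm13561, covers 55161 bases of its span but held only 34 reads over the 12 libraries, where Dpp4 held 11074.

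Adora2a (ENSMUSG00000020178, chromosome 10, 75316877 to 75334784), the gene of the A2a receptor, was at 73.6, 73.6 and 62.0 TPM in unstimulated CD18wt and at 71.4, 72.1 and 84.2 TPM in unstimulated CD18Foxp3 Treg. Stimulated Treg had 71.5, 58.7 and 47.4 TPM in CD18wt and 37.7, 58.6 and 69.6 TPM in CD18Foxp3 libraries. The cultures overlapped in CD18wt Treg, and in CD18Foxp3 Treg the highest stimulated library lay just under the lowest unstimulated one. Adora2a fell by 0.63 in CD18wt Treg (SE 0.16, edgeR adjusted p = 0.0051) and by 0.83 in CD18Foxp3 Treg (SE 0.19, edgeR adjusted p = 0.0052) on the log2 scale. These calls were close to the threshold: on the log2(TPM + 1) scale the values were -0.25 (adjusted p = 0.217, limma) and -0.49 (adjusted p = 0.0802, limma). In CD18wt Treg the call was lost without replicate 1 or 2 of the unstimulated or replicate 3 of the stimulated libraries (-0.61, -0.62 and -0.48, edgeR adjusted p = 0.0203, 0.0207 and 0.0136). It was lost in CD18Foxp3 Treg without any one of the unstimulated libraries or replicate 2 of the stimulated ones, at values from -0.87 to -0.77 and adjusted p-values of edgeR from 0.0161 to 0.0236.

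The receptor P2X7 is an ATP-gated cation channel whose strong activation opens a large pore and can kill the cell. Its gene P2rx7 (ENSMUSG00000029468, chromosome 5, 122643911 to 122691432) was at 88.9, 90.3 and 89.5 TPM in unstimulated CD18wt Treg and at 72.5, 87.6 and 82.1 TPM in unstimulated CD18Foxp3 Treg. After stimulation 18.7, 9.98 and 17.8 TPM remained in CD18wt and 15.7, 19.5 and 13.4 TPM in CD18Foxp3 Treg. No stimulated library came near an unstimulated one. P2rx7 fell by 2.96 on the log2 scale, or 7.75-fold, in CD18wt Treg (SE 0.18, edgeR adjusted p = 1.6e-07). In CD18Foxp3 Treg it fell by 2.68, or 6.42-fold (SE 0.15, edgeR adjusted p = 2.8e-06).

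On mouse T cells P2X7 can also be activated without ATP, by the enzyme ART2.2, which is encoded by Art2b and transfers ADP-ribose from NAD onto the channel. Art2b (ENSMUSG00000030651, chromosome 7, 101576970 to 101585600, reverse strand) had the largest fall among the 8 genes. Unstimulated libraries held 194, 135 and 178 TPM in CD18wt and 156, 170 and 154 TPM in CD18Foxp3 Treg. In stimulated libraries the level was 15.4, 8.07 and 22.1 TPM in CD18wt and 16.5, 15.6 and 10.6 TPM in CD18Foxp3 Treg, so that the highest stimulated library was far under the lowest unstimulated one. Art2b fell by 3.91 on the log2 scale, or 15.0-fold, in CD18wt Treg (SE 0.32, edgeR adjusted p = 2.3e-05). It fell by 3.85, or 14.4-fold, in CD18Foxp3 Treg (SE 0.18, edgeR adjusted p = 1.3e-06).

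Art2b has a close relative, the polymorphic pseudogene Art2a-ps, 16104 bases away on the same chromosome, and 4.07% of the 59-base words of the Art2b transcripts also occur in those of Art2a-ps. Reads that fit both could have been split between them, and 92.8% of the Art2b reads were placed uniquely. Art2a-ps itself fell, from a mean of 60.7 to 5.87 TPM in CD18wt and from 48.2 to 10.6 TPM in CD18Foxp3 Treg. With the reads of both genes summed, an alternative chosen after seeing the data, the log2 fold change was -3.89 in CD18wt and -3.62 in CD18Foxp3 Treg. It was -3.90 (CD18wt) and -3.86 (CD18Foxp3) with uniquely placed reads of Art2b alone.

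P2rx4 (ENSMUSG00000029470, chromosome 5, 122707544 to 122729738), the gene of a related ATP-gated channel, begins 16111 bases beyond the end of P2rx7. It was at 6.49, 6.86 and 6.76 TPM in unstimulated and 7.90, 7.34 and 9.001 TPM in stimulated CD18wt Treg. In CD18Foxp3 Treg the level was 5.88, 5.31 and 7.67 TPM without and 5.46, 8.48 and 8.26 TPM with stimulation, and these libraries overlapped. The log2 fold change on stimulation was -0.13 in both genotypes, with SE 0.18 and 0.20 and adjusted p-values of 0.561 and 0.603 in edgeR. On the log2(TPM + 1) scale it was 0.23 in CD18wt and 0.20 in CD18Foxp3 Treg, so its sign depended on the scale. The transcripts of P2rx7 and P2rx4 share no 59-base word.

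**Figure D3:**
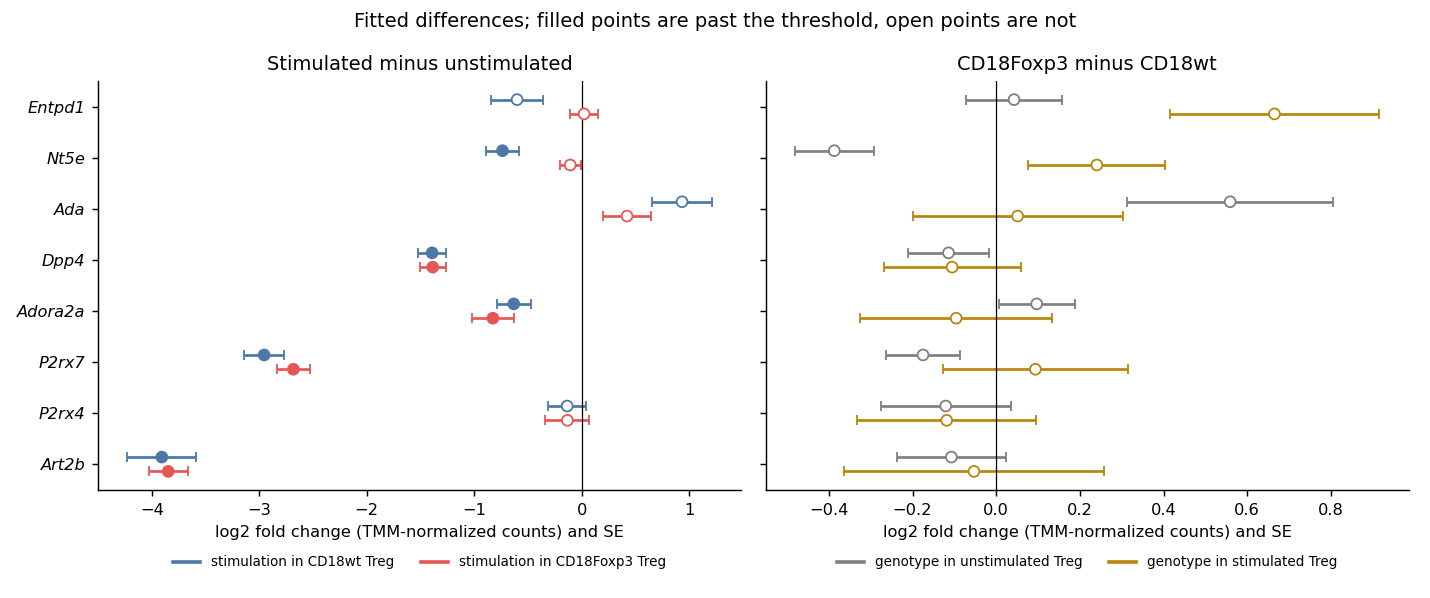
Fitted log2 fold changes with their standard errors (horizontal axes) on stimulation in each genotype (left) and between the genotypes in each culture (right), where filled points are past the threshold of 1.5-fold and an adjusted p of 0.01. Art2b, P2rx7 and Dpp4 lie furthest to the left in both genotypes on stimulation, and no point of the genotype comparisons is filled.

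Because P2rx7 and Art2b act in the same signal and fell together while P2rx4, the neighbour of P2rx7, did not pass the test, the DNA before the start sites of these 3 genes is shown. The 250 bases before the RefSeq start (GRCm38.p6) are given 5′ to 3′ on the gene's own strand, with the AP-1 motif TGANTCA in capitals. They lie at chr5:122643677-122643926 for P2rx7 (forward strand), at chr7:101581162-101581411 for Art2b (reverse strand) and at chr5:122707294-122707543 for P2rx4 (forward strand).
P2rx7: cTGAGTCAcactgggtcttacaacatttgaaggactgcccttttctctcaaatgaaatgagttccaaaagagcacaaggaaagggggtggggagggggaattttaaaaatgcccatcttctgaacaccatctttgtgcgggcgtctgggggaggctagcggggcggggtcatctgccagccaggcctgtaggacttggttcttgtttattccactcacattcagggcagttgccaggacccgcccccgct
Art2b: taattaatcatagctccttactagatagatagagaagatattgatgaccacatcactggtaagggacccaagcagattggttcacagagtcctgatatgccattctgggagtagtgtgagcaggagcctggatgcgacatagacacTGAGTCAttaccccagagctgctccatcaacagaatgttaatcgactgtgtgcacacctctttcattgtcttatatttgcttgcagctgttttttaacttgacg
P2rx4: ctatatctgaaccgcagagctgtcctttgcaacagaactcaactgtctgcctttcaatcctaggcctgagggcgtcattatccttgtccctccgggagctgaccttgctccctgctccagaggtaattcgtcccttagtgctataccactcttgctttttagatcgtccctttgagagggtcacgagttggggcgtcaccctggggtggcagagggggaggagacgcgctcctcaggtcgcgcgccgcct
The last 16 bases for P2rx7 lie in an exon of the GENCODE annotation. The Art2b stretch lies inside the span of the gene in the files, with 18 bases in an exon, since that span begins further upstream.

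RefSeq windows from 250 bases before to 50 after the start were at hand for 7 of the 8 genes, 9 windows in all, and were searched on both strands for 6 motifs. TGAGTCA was found from the second base of the P2rx7 stretch shown and 104 bases before the start of Art2b, and in no other of the 9 windows, which include a second start of P2rx7. The windows without it thus include those of Dpp4, which fell in both genotypes, and of Nt5e, which fell in CD18wt Treg. For Nt5e all 250 bases before the RefSeq start lie in an exon of the GENCODE annotation. Whether the motif bears on the falls was not tested. Of all 32851 mouse windows, 6.75% hold TGANTCA. The letters TGACGTCA (cAMP response element, in 1.55% of all windows), TGTTTAC (FOXO, 3.17%), CTTTGAT (TCF/LEF, 3.21%), CCGGAAGT (ETS, 2.88%) and the kappaB motif (0.98%) were in none of the 9. A match of letters is a description of the sequence and not a measured binding site.

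The falls were also looked for in intron reads, which come from transcripts that still hold introns and made up 3.32% to 5.99% of gene reads per library. This alternative was chosen after seeing the data, and the libraries do not keep strand. In intron reads P2rx7 was at -2.61 in CD18wt and -2.30 in CD18Foxp3 Treg on the log2 scale (SE 0.381 and 0.217). Dpp4 was at -2.10 and -1.91 (SE 0.345 and 0.222), and these values were all past the threshold of edgeR. Of 9492 genes tested in intron reads in CD18wt Treg, 257 were called higher and 483 lower. Of 10260 in CD18Foxp3 Treg, 1539 were called higher and 1578 lower. For Art2b the intron reads fell less than the exon reads, by 1.89 in CD18wt and 1.94 in CD18Foxp3 Treg (SE 0.311 and 0.20). The share of Art2b reads that lay in introns was 8.48% ± 2.96 (SD, n = 3) in unstimulated and 32.2% ± 3.74 (SD, n = 3) in stimulated CD18wt Treg, and 8.96% ± 0.840 and 32.4% ± 1.24 (SD, n = 3 each) in CD18Foxp3 Treg. All 6 stimulated libraries lay between 29.2% and 36.4% and all 6 unstimulated ones between 6.01% and 11.8%. How many of all genes tested are separated in their intron share was not counted, here and below. Art2a-ps held 290 to 683 intron and 378 to 448 exon reads in unstimulated CD18wt libraries, and 134 to 394 and 17 to 68 in stimulated ones. In CD18Foxp3 libraries it held 421 to 541 and 360 to 397 without, and 273 to 453 and 50 to 113 with stimulation. How intron reads were placed between Art2b and Art2a-ps was not tested.

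Nt5e went the other way. Its intron reads fell in both genotypes, by 1.64 in CD18wt (SE 0.33, edgeR adjusted p = 0.0025) and by 1.12 in CD18Foxp3 Treg (SE 0.17, edgeR adjusted p = 4.1e-07), although its exon reads did not pass the test in the latter. The intron share of Nt5e was 8.35% ± 1.44 and 8.96% ± 1.15 in unstimulated and 5.79% ± 0.738 and 5.85% ± 0.255 in stimulated CD18wt and CD18Foxp3 Treg (SD, n = 3 each). P2rx4 had 12.2% to 28.4% of its reads in introns in the stimulated and 3.98% to 15.7% in the unstimulated libraries, and within each genotype every stimulated library lay above the unstimulated ones, in CD18wt Treg by less than 0.1 percentage points. For Adora2a the log2 fold change in intron reads was -0.83 (edgeR adjusted p = 0.158) in CD18wt and -0.82 (edgeR adjusted p = 0.00045) in CD18Foxp3 Treg. Replicate 3 of unstimulated and replicate 2 of stimulated CD18wt Treg had the lowest intron shares over all genes, 3.32% and 3.66%, and the part of this in the values of CD18wt Treg was not tested.

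**Figure D4:**
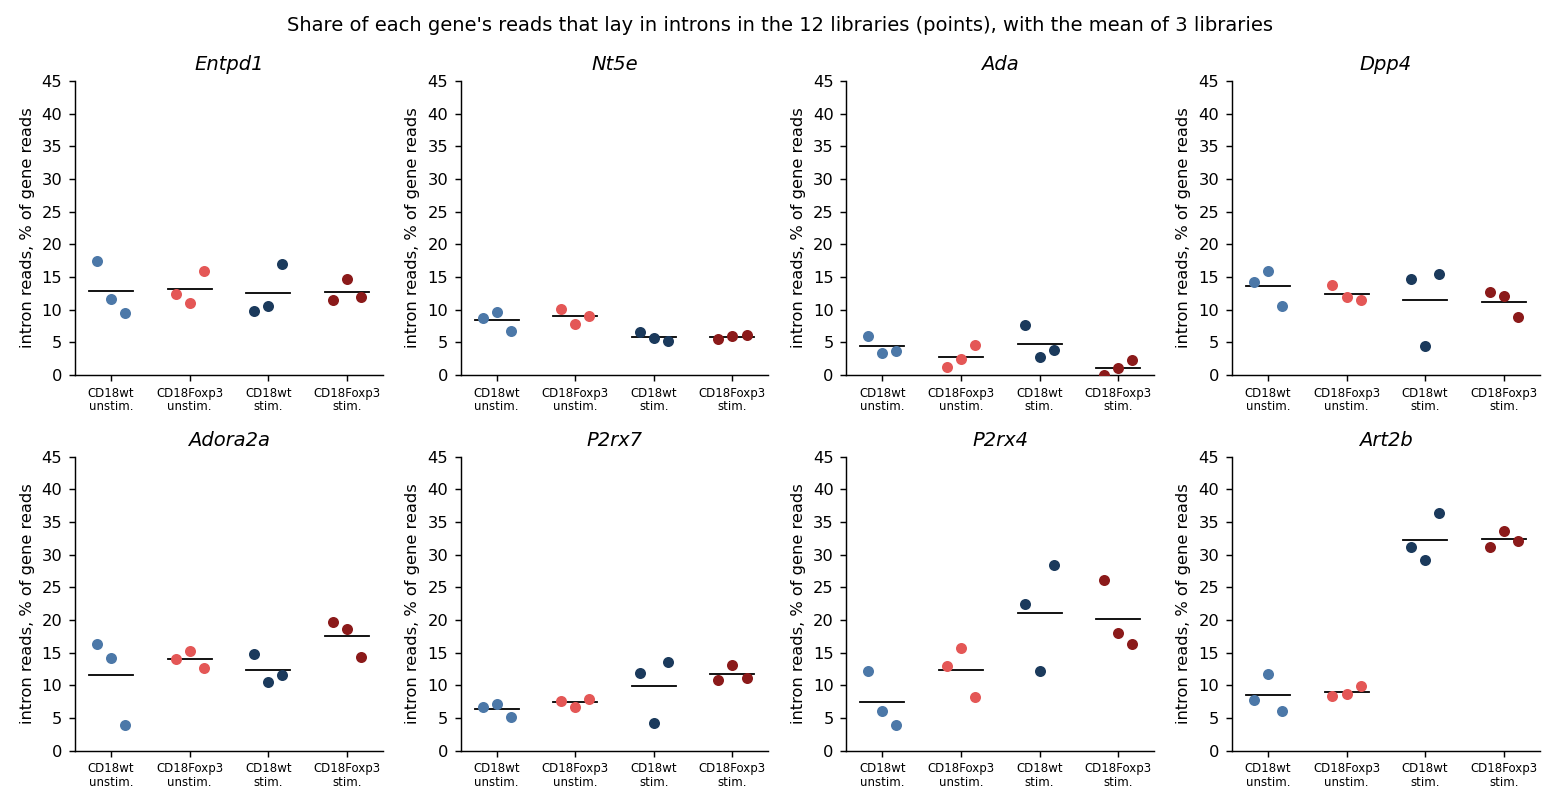
Intron reads as a percentage of the exon and intron reads of each gene (vertical axes from 0 to 45%) in the 3 libraries of each group (points), with the mean as a line. The share for Art2b is 29.2% to 36.4% in all stimulated and 6.01% to 11.8% in all unstimulated libraries, and that for Nt5e is lower in every stimulated library than in every unstimulated one.

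The comparison of the genotypes asks whether Treg that lack CD18 differ in this pathway. By the edgeR quasi-likelihood test none of the 8 genes was called in unstimulated Treg, where 0.135% of 11829 genes were (0.0507% higher and 0.0845% lower). None was called in stimulated Treg, where 0% of 11930 genes were. Itgb2 itself was not called in stimulated Treg (log2 fold change -0.94, edgeR adjusted p = 0.216), so a difference of that size can go uncalled. DESeq2 called none of the 8 in either culture. At an unadjusted p under 0.05, edgeR had 2 of the 8 genes in unstimulated Treg, Nt5e and Ada, where 9.59% of all genes reached it, and 1 in stimulated Treg, Entpd1, where 4.89% did.

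In unstimulated Treg the 3 CD18Foxp3 libraries lay under the 3 CD18wt libraries for Nt5e and P2rx7, as for 6.9% of all genes, and none of the 8 genes had all CD18Foxp3 libraries above, as 8.74% had. The libraries overlapped for the other 6. Nt5e had mean levels of 76.6 ± 2.44 and 98.2 ± 7.21 TPM (SD, n = 3 each), and its log2 fold change was -0.39 (SE 0.09, edgeR adjusted p = 0.129). The exact two-sided permutation test on its levels gave p = 0.1, the smallest that 3 against 3 libraries allow. P2rx7 was at -0.17 (SE 0.09, edgeR adjusted p = 0.584). Ada was higher on average in CD18Foxp3 Treg, at 11.7 ± 1.501 against 7.76 ± 2.59 TPM (SD, n = 3 each), but 1 CD18wt library lay among the CD18Foxp3 ones, and the log2 fold change was 0.56 (SE 0.25, edgeR adjusted p = 0.4996). For the other 5 genes the log2 fold change lay between -0.12 and 0.10, with SE from 0.09 to 0.15.

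In stimulated Treg the libraries of the genotypes overlapped for all 8 genes, where 5.02% of all genes tested had every CD18Foxp3 library above and 4.41% every one under the CD18wt libraries. Entpd1 had the largest difference, with 26.5 ± 2.61 TPM in CD18Foxp3 and 16.9 ± 6.90 TPM in CD18wt Treg (SD, n = 3 each) and a log2 fold change of 0.67 (SE 0.25, edgeR adjusted p = 0.916). Without replicate 1 of stimulated CD18wt Treg, the only library of that genotype within the CD18Foxp3 range, it was 1.006 (edgeR adjusted p = 0.480), and without replicate 3 of that group it was 0.43 (edgeR adjusted p = 0.855). Nt5e was at 0.24 (SE 0.16, edgeR adjusted p = 0.998). The remaining genes had values from -0.12 to 0.09, with SE from 0.16 to 0.31 in edgeR.

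Whether stimulation acted differently in the genotypes was tested as an interaction over all 12 libraries, where edgeR called 0% of 12636 genes, none of the 8 among them, and DESeq2 called none of the 8. Nt5e alone of the 8 had an unadjusted p under 0.05, as did 3.84% of all genes, with a difference of 0.62 between its log2 fold changes in CD18Foxp3 and CD18wt Treg (SE 0.19, edgeR unadjusted p = 0.0052, edgeR adjusted p = 0.987). Entpd1 had a difference of the same size with a larger error (0.62, SE 0.30, edgeR adjusted p = 0.987), which was 0.95 without replicate 1 and 0.38 without replicate 3 of stimulated CD18wt Treg. For Art2b, Dpp4 and P2rx7 it was 0.05, 0.0015 and 0.27, with SE of 0.35, 0.17 and 0.24. With each library left out, the value for P2rx7 ran from 0.09 (without replicate 2 of stimulated CD18wt Treg) to 0.40 (without replicate 1 of that group).

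Over the 12 libraries the members varied with each other to different degrees, which is given as a description since all points share the 2 cultures. In log2 CPM, Pearson's r was 0.99 between P2rx7 and Art2b, 0.97 between P2rx7 and Dpp4, and 0.98 between Art2b and Dpp4. Ada was negatively related to each of these (-0.70 to -0.74), and P2rx4 had r between -0.17 and 0.54 with the other members. Entpd1 and Nt5e had r = 0.64. The genes most like each member among 12636 were ranked by r alone, and the reason for their likeness was not tested. They were Gimap3, Gbp9 and Gimap8 for Art2b (r = 0.995 each) and Rassf2, Art2b and Fyb for P2rx7 (0.994 each). For Dpp4 they were Nsg2, St6gal1 and Dtx4 (0.989 to 0.99), and for Adora2a Coro1b, Itm2c and Acaa2 (0.982 to 0.99). Ada was nearest to Mutyh, Nek8 and N4bp3 (0.924 to 0.933) and P2rx4 to Poll, Babam1 and Amdhd2 (0.872 to 0.882). Acadsb, Maf and 1700020I14Rik came closest to Nt5e (0.933 to 0.952), and Ebi3, which encodes a subunit of IL-35, Gm4858 and F2r to Entpd1 (0.866 to 0.88).

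The 8 genes are part of a wider set of enzymes, receptors and transporters, of which 91 more were looked up in 9 lists by role. In each genotype 62 of them had enough reads to be tested on stimulation. In CD18wt Treg 12 rose and 11 fell, and in CD18Foxp3 Treg 12 rose and 16 fell (edgeR quasi-likelihood test), where 18.7% and 20.9% of all genes rose and 14.9% and 17.6% fell in the same comparisons. Every one of these genes was also separated in TPM, with the 3 stimulated libraries on the same side of the 3 unstimulated ones. The calls came from the same reads, so this separation is a description and no added support. Of all genes tested, 47.8% in CD18wt and 47.9% in CD18Foxp3 Treg had every stimulated library above, and 14.2% and 19.2% every one under. On the log2(TPM + 1) scale no called gene changed sign, but 5 of the calls in CD18wt and 6 in CD18Foxp3 Treg were lost (limma), all of them falls.

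Among the ectoenzymes, which work at the cell surface or outside the cell on ATP, NAD or AMP, 16 were listed and 9 tested. Both numbers include the pseudogene Art2a-ps. Of the 9 tested, 5 fell in CD18wt and 7 in CD18Foxp3 Treg, Art2a-ps among them in both. Of all genes tested, 14.9% and 17.6% fell. Cd38, an NAD-consuming enzyme, went from 21.2 to 10.9 TPM in CD18wt and from 18.4 to 11.9 TPM in CD18Foxp3 Treg, a log2 fold change of -1.37 and -0.99. Enpp1, which hydrolyses ATP to AMP and pyrophosphate, fell by 1.43 and 1.24, Acpp, a phosphatase that can act on AMP, by 1.64 and 1.80, and Art3, a relative of Art2b, was at -2.999 and -3.46. Art4 and Enpp2 passed only in CD18Foxp3 Treg (-4.15 and -2.50), while in CD18wt Treg both lay in the same direction without passing, and the difference between the genotypes passed for neither. Neither held more than 15 exon reads in any stimulated library. Alpl, the tissue-nonspecific alkaline phosphatase, was the one that rose, from 1.18 to 10.99 TPM in CD18wt and from 0.551 to 8.81 TPM in CD18Foxp3 Treg (log2 fold changes 2.82 and 3.60).

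Of the other adenosine receptor genes, Adora1 had at most 7 reads and Adora3 at most 1 in any library, and neither was tested. Adora2b, the gene of the A2b receptor (ENSMUSG00000018500, chromosome 11, 62248984 to 62266453), had no read in any of the 6 unstimulated libraries, which allows up to 3 reads per group, and 14, 28 and 29 reads in stimulated CD18wt and 37, 39 and 47 reads in stimulated CD18Foxp3 Treg. It was thus at least 23.9-fold higher in CD18wt and at least 40.5-fold higher in CD18Foxp3 Treg, set against 3 reads over the group, and was called in both (edgeR adjusted p = 0.00062 and 0.00023). Its level stayed low, at 2.55 and 3.98 TPM against 59.2 and 55.3 TPM of Adora2a. Of the 12 further P2 receptor genes, P2ry2 was called, with 0 reads in the unstimulated and 14, 27 and 14 reads in the stimulated CD18wt libraries (at least 18.5-fold higher). In stimulated CD18Foxp3 Treg it held 5, 20 and 10 reads and was not tested. All 12 stayed under 1 TPM in the mean of every group, so P2rx7 and P2rx4 were the P2 receptor genes with more than traces of RNA. These limits cover counting error only.

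Nucleoside transporters carry adenosine across the membrane, and 7 were listed, some with too few reads to be tested. Of these, 2 equilibrative ones rose and a concentrative one fell in both genotypes. Of all genes tested, 18.7% in CD18wt and 20.9% in CD18Foxp3 Treg rose, and 14.9% and 17.6% fell. Slc29a1 (ENT1) went from 58.8 to 140 TPM in CD18wt and from 46.3 to 113 TPM in CD18Foxp3 Treg (log2 fold changes 0.85 and 0.93), and Slc29a2 (ENT2) from 1.59 to 10.1 and from 1.20 to 10.0 TPM (2.26 and 2.70). Slc28a2, a sodium-dependent transporter of purine nucleosides, went from 62.3 to 36.2 TPM and from 64.2 to 31.9 TPM (-1.19 and -1.37). Slc29a3 was not called in either genotype, nor Slc29a4 in CD18Foxp3 Treg, where alone it had enough reads.

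Inside the cell, 5 of the 11 tested genes of adenosine metabolism were called, the same 5 in both genotypes, where 33.6% of all genes were called in either direction in CD18wt and 38.6% in CD18Foxp3 Treg. Ahcy, which splits S-adenosylhomocysteine into adenosine and homocysteine, rose from 56.6 to 265 TPM in CD18wt and from 57.0 to 262 TPM in CD18Foxp3 Treg (log2 fold changes 1.83 and 1.84). Ahcyl1, Ampd2 and Aprt rose as well, by 0.73, 1.57 and 0.65 in CD18wt and by 0.74, 1.20 and 0.71 in CD18Foxp3 Treg, whereas the AMP deaminase gene Ampd3 fell by 1.48 and 1.46. Hprt and Pnp, abundant genes of purine salvage, were not called, at 238 and 34.2 TPM without and 359 and 57.5 TPM with stimulation in CD18wt Treg. Of the intracellular nucleotidases, Entpd4 rose in both genotypes (0.90 and 0.63), Entpd5 fell in both (-0.87 and -0.93), and Entpd7 passed only in CD18Foxp3 Treg (1.44, against 0.73 in CD18wt Treg, interaction edgeR adjusted p = 0.987). Nt5c was abundant and not called, at 228 to 256 TPM in the group means of CD18wt Treg and 212 to 248 TPM in those of CD18Foxp3 Treg.

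Downstream of the A2a receptor, cAMP activates protein kinase A, and of 18 genes tested there 4 were called in CD18wt and 6 in CD18Foxp3 Treg, beside the same 33.6% and 38.6% of all genes. Crem, a cAMP-responsive modulator of transcription, rose from 12.01 to 70.1 TPM in CD18wt and from 11.9 to 107 TPM in CD18Foxp3 Treg (log2 fold changes 2.14 and 2.81, interaction edgeR adjusted p = 0.987). Of the subunits of protein kinase A, the regulatory Prkar2a rose by 1.20 and 1.40 in CD18wt and CD18Foxp3 Treg. The catalytic Prkacb fell by 1.42 and 1.33. Neither the regulatory Prkar1a (-0.28 and -0.185) nor the catalytic Prkaca (-0.22 and -0.19) was called. Pde4b, a phosphodiesterase that degrades cAMP, fell by 1.38 and 1.54. Pde3b and Adcy6 fell in CD18Foxp3 Treg (-1.29 and -1.20) and were at -1.05 and -0.55 in CD18wt Treg without passing. Gnas, Prkaca, Prkar1a, Adcy7 and Atf1 were among the genes above 50 TPM that were not called. Of the channels and vesicles that release ATP, Panx1 fell in CD18wt Treg (-0.73, from 42.1 to 33.6 TPM) and was at -0.50 in CD18Foxp3 Treg (edgeR adjusted p = 0.0071), under the limit of 1.5-fold. Slc17a9 fell in CD18Foxp3 Treg (-0.63) and was at -0.14 in CD18wt Treg (edgeR adjusted p = 0.697). Among the relatives of Dpp4, Dpp7 fell in CD18Foxp3 Treg (-0.96) and was at -0.43 in CD18wt Treg without passing. Dpp3, at 94.1 to 137 TPM in the group means, was not called. The difference between the genotypes passed for none of Panx1, Slc17a9, Pde3b, Adcy6 and Dpp7 (edgeR adjusted p = 0.987 each).

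**Figure D5:**
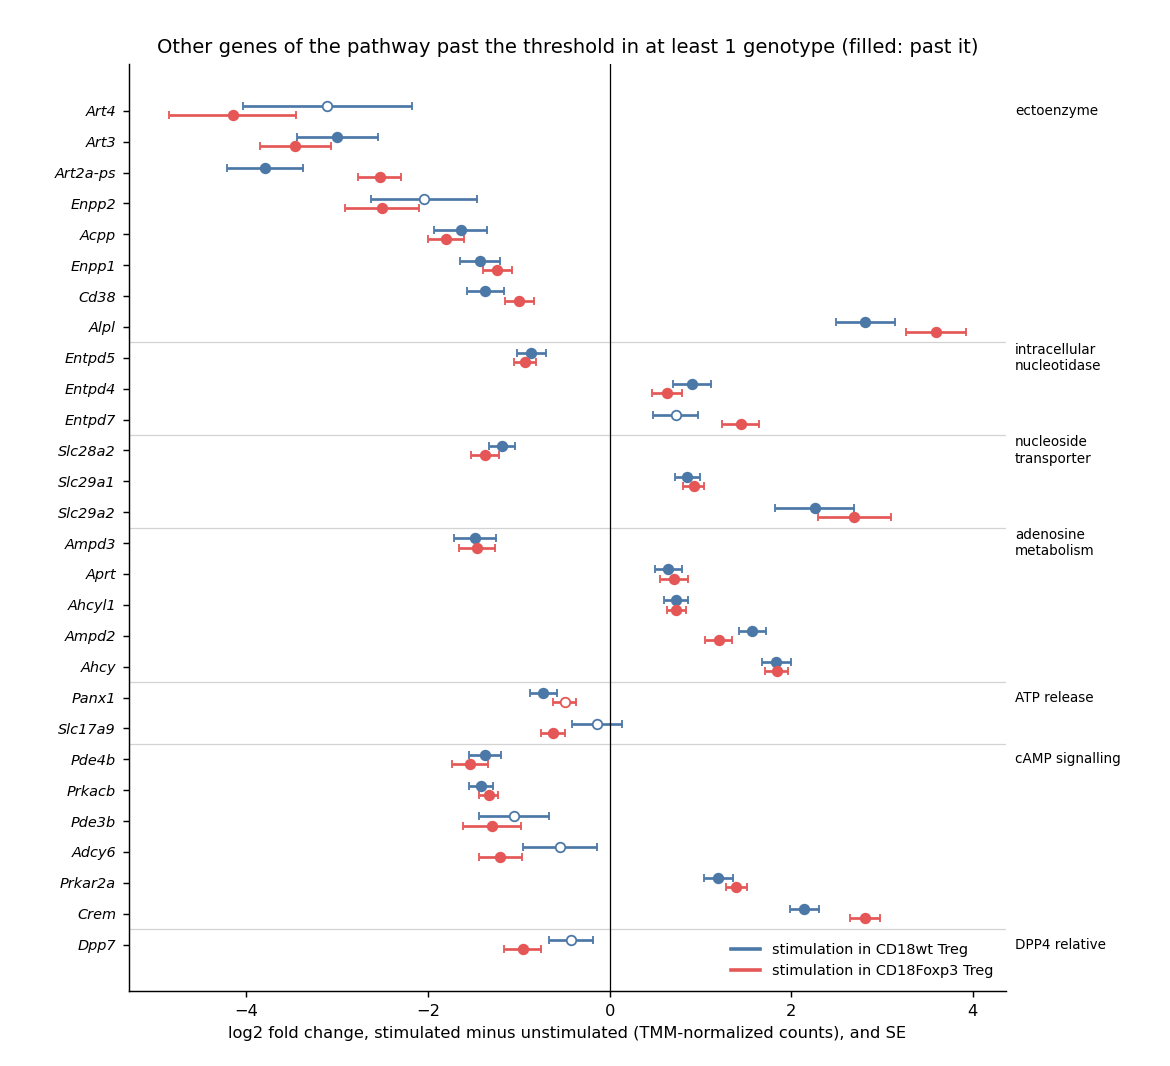
Log2 fold change on stimulation with its standard error (horizontal axis) for the 28 further genes of the pathway that passed the threshold in at least 1 genotype and had reads in both cultures, grouped by role. In the ectoenzyme group 7 of the 8 genes shown, the pseudogene Art2a-ps among them, lie to the left of 0 and Alpl lies to the right. Slc29a1 and Slc29a2 lie opposite to Slc28a2.

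Between the genotypes none of the 60 to 63 tested genes of these lists was called in either culture, nor any of 65 in the interaction, by edgeR or by DESeq2. At an unadjusted p under 0.05 edgeR had 4 of them in unstimulated Treg (Slc17a9, Art2a-ps, Adk and Slc29a1), 3 in stimulated Treg (Pde7a, Slc29a4 and Crem) and 3 in the interaction (Art2a-ps, Crem and Entpd7), where 9.59%, 4.89% and 3.84% of all genes reached it.

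Markers of other cell types moved with the culture too. On stimulation 3 of 4 tested B cell markers fell in CD18wt and 2 of 2 in CD18Foxp3 Treg, as did 3 of 4 tested cytotoxic markers in each genotype, where 14.9% and 17.6% of all genes fell. Of 2 myeloid markers tested in each genotype, Lyz2 fell in CD18wt Treg (-3.57 on the log2 scale) and Itgam in CD18Foxp3 Treg (-3.51), and the erythroid Hba-a2, the only one of its list tested on stimulation, fell in CD18Foxp3 Treg (-6.10). The 6 B cell markers summed to 27.3 to 39.2 TPM in the unstimulated and 9.48 to 21.5 TPM in the stimulated libraries, most of it Cd79b. The 7 myeloid markers summed to 4.70 to 20.3 TPM without and 5.72 to 11.9 TPM with stimulation, with Adgre1 at 0 in all unstimulated libraries, and the 6 markers of cytotoxic lymphocytes to 84.7 to 152 TPM and 93.0 to 148 TPM, most of it Nkg7. The 5 erythroid markers reached 58.1 TPM in 1 library of unstimulated CD18Foxp3 Treg and at most 10.2 TPM in the libraries of the other groups. The part of other cell types in the falls of P2rx7, Art2b and Dpp4 was not tested. These 3 genes held 29.7 to 194 TPM in every unstimulated library.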

How the data were processed

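RNA was purified from sorted Treg, poly(A)-selected and sequenced as single reads of 59 bases, with a library kit (NEBNext Ultra II) that does not mark strand and 15 cycles of PCR. The authors counted reads per gene with CLC Genomics Workbench against GRCm38, and the deposited tables hold, per the file headers, counts of total exon, uniquely placed exon, intron and junction reads with no normalization. The tables also hold RPKM and TPM, written with decimal commas. TPM was recomputed from total exon reads and exon length, and differed from the deposited TPM by at most 5.0e-07.

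Counts were tested with edgeR 4.0.16 (filterByExpr with a minimum count of 10, TMM, robust quasi-likelihood fit) in R 4.3.3, on the 6 libraries of a comparison or all 12 for the interaction. A call needed a fold change of 1.5 and an adjusted p of 0.01, the limits the study used. Libraries were grouped by their labels. Alternatives were DESeq2 1.42.0, limma 3.58.1 on log2 TPM, other normalizations and filters, a replicate block and each library left out. The fits were tested on simulated data. The members, and the lists of related genes and markers, were chosen with earlier results of these data known. Genes of the lists were named in the text where called, or where not called at 50 TPM or more in the mean of a group, beside members and counts of 5 or fewer; the genes most like each member are the 3 with the highest r. Some names at the edges of this rule (Slc29a3, Adora1, Adora3 and the markers) were chosen after their values were seen. Total exon reads per library were 10665174 to 19005482. Intervals and floors cover counting error only, since reads without molecular identifiers are not independent molecules.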

Additional observations from a re-analysis of the deposited data

Results flagged for a closer look

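Nt5e was the single member whose response to stimulation differed between the genotypes at an unadjusted p under 0.05. The difference, CD18Foxp3 minus CD18wt, was 0.62 on the log2 scale (SE 0.19, edgeR unadjusted p = 0.0052), and it did not pass the adjustment over 12636 genes (edgeR adjusted p = 0.987). The group means behind it were 98.2 and 78.4 TPM in unstimulated and stimulated CD18wt Treg, and 76.6 and 91.5 TPM in CD18Foxp3 Treg. The difference lay between 0.52 and 0.79 with each library left out. An unadjusted p under 0.05 was reached by 3.84% of all genes in this test.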

How the results depend on the processing

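The falls of Art2b, P2rx7 and Dpp4 on stimulation were called in both genotypes under every alternative run, and the fall of Nt5e in CD18wt Treg with each library left out. Adora2a in CD18wt Treg was also lost with all 12 libraries in 1 fit (edgeR adjusted p = 0.0117). The number of members called ran from 4 to 7 in CD18wt and from 3 to 5 in CD18Foxp3 Treg, and was 0 under every alternative between the genotypes and in the interaction. Signs turned where the value of the main edgeR fit was small, though the value under the alternative was not always small. On stimulation in CD18wt Treg, P2rx4 was at 0.23 and 0.26 with limma on log2(TPM + 1) and log2(TPM + 0.1) and at 1.21 in intron reads. In CD18Foxp3 Treg, on the same 3 scales, P2rx4 was at 0.20, 0.22 and 0.36, Nt5e was at 0.25 and 0.26 on the TPM scales, and Entpd1 was at -0.043 with upper-quartile normalization and -0.39 in intron reads. Between the genotypes, intron reads gave -0.12 for Entpd1 and 0.45 for P2rx4 without stimulation and 0.27 for Adora2a with it, while Art2b in stimulated Treg was at 0.0092 with the replicate block and 0.13 with Art2a-ps added. In the interaction P2rx4 was at 0.013, 0.016, 0.015 and 0.0052 (upper-quartile, median-ratio, DESeq2, 10 reads in every library), Dpp4 at -0.0097, -0.031, -0.035 and -0.0036 (no filter, the TPM scales, replicate block), and in intron reads Adora2a at 0.034 and Art2b at -0.070. The cause of these turns was not tested.

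With each library left out, stimulation in CD18Foxp3 Treg ran from -0.069 to 0.095 for Entpd1 and from -0.23 to 0.02 for P2rx4, and the genotype difference in unstimulated Treg from -0.023 to 0.14 for Entpd1. In stimulated Treg the genotype difference ran from -0.30 to 0.11 for Adora2a, -0.10 to 0.24 for P2rx7, -0.21 to 0.047 for P2rx4, -0.33 to 0.28 for Art2b and -0.11 to 0.24 for Ada. In the interaction it ran from -0.41 to 0.0085 for Adora2a, -0.10 to 0.17 for P2rx4, -0.20 to 0.39 for Art2b, -0.059 to 0.077 for Dpp4 and -0.80 to -0.32 for Ada. The lower Nt5e of unstimulated CD18Foxp3 Treg ran from -0.45 to -0.29.

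Genes called over the whole tables varied more: 16 between the genotypes without stimulation became 33 at an adjusted p of 0.05, 86 with DESeq2, 134 with no filter, 41 with the replicate block, 1 and 2 with limma on the TPM scales, and 0 in 1 fit of 12 libraries or in intron reads. With each library left out it ran from 0 to 44, with 44 genes without CD18wt replicate 3, 2 without CD18wt replicate 1, 1 without CD18Foxp3 replicate 3 and 0 without any of the other 3. With stimulation 0 became 22 with DESeq2, 61 with no filter and 1 each with the block and limma at the smaller pseudocount. In the interaction 0 became 1 with DESeq2, 31 with no filter and 1 with limma, and on stimulation in CD18wt Treg intron reads called 257 higher and 483 lower. In intron reads 5 of the related genes called in CD18wt Treg had the other sign.

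The replicate numbers are shared by the groups, but same-numbered libraries deviated together only in part (correlations of -0.12 to 0.15 between cultures in CD18wt and 0.06 to 0.26 in CD18Foxp3 Treg), so the numbers were not taken as pairs. In CD18Foxp3 Treg each unstimulated library correlated best with its own number, and in CD18wt Treg this did not hold. The replicate block left the numbers of members called at 5, 4, 0, 0 and 0. Depth was lowest for Ada, with 52 to 281 exon reads per library, and for Art2b after stimulation, with 131 to 323 reads.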
